A study of Homo sapiens with 8 samples.

Results

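The genes described here are the 2 oxygen-regulated transcription factors HIF1A and EPAS1 and 8 of their known target genes, VEGFA, CA9, CA12, EGLN3, ADM, NDRG1, BNIP3 and ANKRD37. They were found by gene symbol among the 63241 Ensembl identifiers of the deposited expression values, where all 10 were present, each under 1 identifier. The filter on low values asked for 2 or more libraries with an FPKM of 1 or higher and kept 9 of the 10 and 15173 genes in all, and CA12 did not pass it. FPKM scales sequenced fragments to the length of the transcript and the total of the library, so levels of different genes can be set side by side. The cells were HepG2 and Huh7, lines derived long ago from human liver tumours, and the labels name no genetic change in either. Each was sequenced as parental cells (WT, labelled sensitive control) and as sorafenib-resistant cells (SR), which were made by exposing the parental line to a rising gradient of sorafenib, an inhibitor of several kinases. Each line and state had 2 libraries, which makes 4 groups and 8 libraries in all, labelled as 1 batch. No low-oxygen culture is named in the labels or the methods, so the values describe cells in their ordinary culture. The SR cells of each line are a selected population, and the number of independent selections is not given in the sources used here.

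Hypoxia-inducible factors are pairs of an alpha subunit, HIF-1 alpha from HIF1A or HIF-2 alpha from EPAS1, and a stable partner, ARNT. When oxygen is present, prolyl hydroxylases mark the alpha protein and the VHL ubiquitin ligase has it destroyed, so the factors are controlled mostly as proteins and their mRNA does not show their activity. When oxygen is short, the pair binds a short core in DNA and switches on genes for glucose use, blood vessel growth, acid handling and removal of mitochondria. In liver tumours, hypoxia signalling is best known for driving vessel growth, and sorafenib acts in part on the receptors for VEGF.

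Promoters of the targets are shown first, searched for the core that the factors bind. The RefSeq promoter table (GRCh38.p14) held 8 of the 10 genes, without VEGFA and NDRG1. The 250 bases before the transcription start were searched on both strands for the 2 common forms of the core, ACGTG and GCGTG. Of 35116 RefSeq promoters cut to the same length, 18.5% held ACGTG, 32.2% held GCGTG and 43.2% held at least 1 of them. ACGTG was found in ANKRD37, BNIP3 and CA9. ANKRD37 had 3 matches, of which 2 are the 2 strands of a single CACGTG at 162 to 157 bases before the start and the other lay at 143 to 139. BNIP3 had 2 such matches on the 2 strands of a single CACGTG, with 4 matches of GCGTG around it, all on the other strand. At least 2 matches of ACGTG, as in these genes, were found in 7.52% of all promoters. CA9 had 1 match, on the other strand, at 18 to 14 bases before the start. ADM, EPAS1, HIF1A and CA12 each had 1 match of GCGTG, and EGLN3 had none of either form in this window. HIF1A has a second promoter in the table, 31.2% G and C, which held none. The promoters of the targets with ACGTG, of ADM with GCGTG and of EGLN3 with neither are printed 5′ to 3′ on the strand of the gene, with matches in capitals, at chr4:185396591-185396840 (plus strand) for ANKRD37, chr10:131981924-131982173 (minus strand) for BNIP3, chr9:35673678-35673927 (plus strand) for CA9, chr11:10304823-10305072 (plus strand) for ADM and chr14:33951075-33951324 (minus strand) for EGLN3. A match on the other strand appears in capitals as CACGT or CACGC.
ANKRD37: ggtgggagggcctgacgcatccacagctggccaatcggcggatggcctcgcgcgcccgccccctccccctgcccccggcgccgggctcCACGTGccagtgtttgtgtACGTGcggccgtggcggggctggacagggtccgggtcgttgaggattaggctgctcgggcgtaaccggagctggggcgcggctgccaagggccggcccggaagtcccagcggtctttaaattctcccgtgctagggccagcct
BNIP3: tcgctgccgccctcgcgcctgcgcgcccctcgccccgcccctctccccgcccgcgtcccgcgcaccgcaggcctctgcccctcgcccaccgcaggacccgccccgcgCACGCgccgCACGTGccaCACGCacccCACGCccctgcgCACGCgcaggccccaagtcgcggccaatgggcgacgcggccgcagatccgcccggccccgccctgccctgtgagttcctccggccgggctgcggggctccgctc
CA9: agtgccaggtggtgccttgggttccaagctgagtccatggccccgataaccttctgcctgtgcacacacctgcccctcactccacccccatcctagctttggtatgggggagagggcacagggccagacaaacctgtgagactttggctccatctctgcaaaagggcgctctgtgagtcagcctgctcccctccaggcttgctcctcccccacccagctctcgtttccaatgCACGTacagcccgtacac
ADM: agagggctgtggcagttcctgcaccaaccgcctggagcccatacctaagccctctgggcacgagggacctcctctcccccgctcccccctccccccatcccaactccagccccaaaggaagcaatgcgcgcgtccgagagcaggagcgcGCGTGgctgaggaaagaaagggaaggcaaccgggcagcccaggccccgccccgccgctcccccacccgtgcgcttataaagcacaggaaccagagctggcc
EGLN3: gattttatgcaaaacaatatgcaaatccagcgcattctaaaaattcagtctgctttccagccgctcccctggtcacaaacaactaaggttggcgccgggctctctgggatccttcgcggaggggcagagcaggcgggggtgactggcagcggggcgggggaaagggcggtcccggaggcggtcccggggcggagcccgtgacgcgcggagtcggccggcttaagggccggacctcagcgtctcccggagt
These windows were rich in G and C, from 60.4% in CA9 to 81.6% in BNIP3. A match is a description of the letters only, and binding was not measured.

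**Figure D1:**
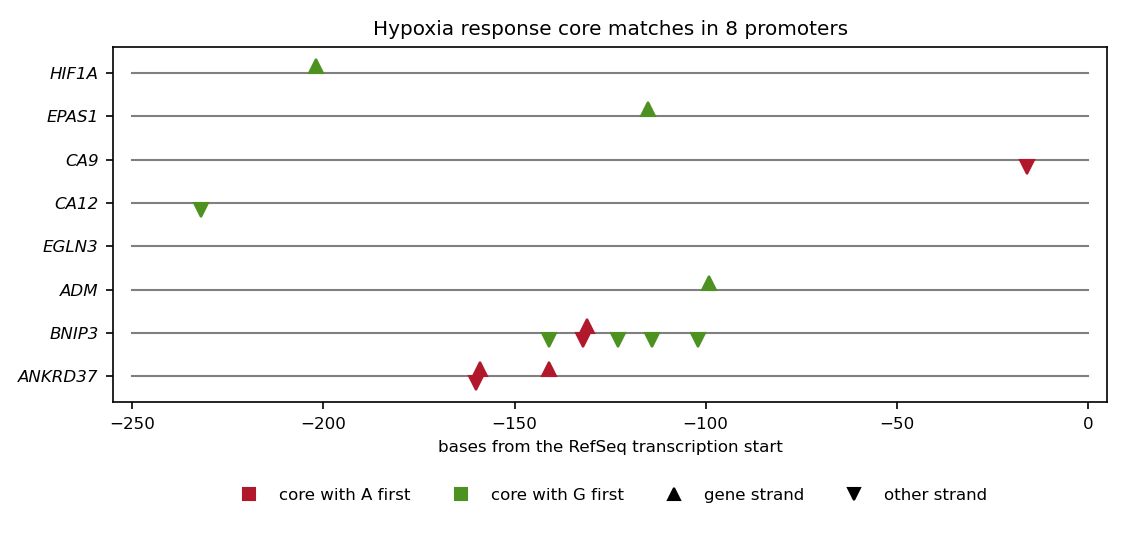
Positions of the 2 forms of the hypoxia core in the 250 bases before the RefSeq start of 8 genes, with distance from the start in bases on the horizontal axis and 1 line per gene. Colour gives the first base of the core and the direction of the triangle gives the strand; BNIP3 holds 6 matches between 143 and 100 bases before the start, CA9 a single one next to the start, and EGLN3 none.

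The 8 libraries did not sort by their labels, which touches every comparison that follows. Across tested genes, Pearson's r of log2(FPKM + 1) was 0.914 to 0.977 among a set of 5: both HepG2 WT libraries, the first HepG2 SR library and the second library of Huh7 WT and of Huh7 SR. Huh7 WT and SR replicates 1 resembled each other (0.965) and those 5 libraries less (0.731 to 0.783). The second HepG2 SR library was distant from either set (0.775 to 0.846). Huh7 WT and Huh7 SR thus each consist of 1 library of either set, and labels were kept as given. The hepatocyte marker list of 10 genes summed to 4819 to 7772 FPKM in the HepG2 libraries and to 645.6, 1180, 872.5 and 5937 FPKM in Huh7 WT replicates 1 and 2 and Huh7 SR replicates 1 and 2. Not all of its genes followed these sums. FGB was at 380 and 327 FPKM in Huh7 WT and SR replicates 1, 128 FPKM in HepG2 SR replicate 2 and 0.386 to 4.51 FPKM in the 5 alike libraries. AFP was at 1100 FPKM in HepG2 SR replicate 2 and at 1.07 to 35.8 FPKM elsewhere. The cholangiocyte list of 5 genes summed to 307.7 to 904 FPKM in the 5 alike libraries and to 17.3 to 65.7 FPKM in the other 3. KRT19, a bile duct keratin, was its highest gene in each of the 5, at 155 to 760 FPKM against 0.179 to 2.37 FPKM in the 3. The other genes of the list did not all go with it, since CFTR was at 0 to 0.166 FPKM in the 5 and 0.389 to 1.77 FPKM in the 3, and SOX9 in HepG2 SR replicate 2 (54.1 FPKM) lay within the range of the 5 (15.6 to 78.4 FPKM). The fibroblast list of 6 genes summed to 0.732 to 9.03 FPKM and the endothelial list of 5 to 0.772 to 4.52 FPKM. Of the leukocyte list of 5, PTPRC was at or near 0 in every library, while LYZ, which other cells also make, carried its sum of 44.9 to 1062 FPKM. In such bulk samples, fewer cells of a type and less RNA per cell cannot be told apart. Between 12829 and 13386 genes reached an FPKM of 1 in a library.

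HIF1A and EPAS1, the genes of the alpha subunits, were abundant in every library and did not differ between SR and WT by more than the spread between replicates. HIF1A (chromosome 14, 61695513 to 61748259, plus strand, GRCh38) measured 36.6 and 61.3 FPKM in HepG2 WT, 59.0 and 43.6 in HepG2 SR, 34.9 and 49.8 in Huh7 WT and 29.7 and 46.6 in Huh7 SR, replicate 1 first. The 4 groups overlapped, and each Huh7 replicate 1 was below its replicate 2. EPAS1 (chromosome 2, 46293667 to 46386703, plus strand) measured 116 and 59.2 FPKM in HepG2 WT, 78.5 and 52.2 in HepG2 SR, 48.9 and 79.2 in Huh7 WT and 44.9 and 59.3 in Huh7 SR. HepG2 WT replicate 1 was the highest library, and the groups overlapped here as well. On the log2(FPKM + 1) scale, SR minus WT was 0.10 for HIF1A in HepG2 (SE 0.42, 95% interval -0.90 to 1.09) and -0.16 in Huh7 (SE 0.42, -1.16 to 0.84). The direction in HepG2 rested on the scaling, since it was -0.01 both after rescaling libraries to a common sum and after quantile normalization. For EPAS1, the difference was -0.37 in HepG2 (SE 0.46, -1.47 to 0.73) and -0.27 in Huh7 (SE 0.46, -1.36 to 0.83). With 2 libraries a group, changes inside these intervals were not detectable. More mRNA was found for EPAS1 than for HIF1A in 7 of 8 libraries, with a ratio of 1.20 to 3.17, and the exception was HepG2 WT replicate 2 at 0.965.

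The proteins that switch these factors on and off were followed as a list of 14 regulators, of which 12 were tested. HIF3A, another alpha subunit, and ARNT2, a relative of ARNT, were at no more than 0.139 and 0.319 FPKM and did not pass the filter. In HepG2, 0 of the 12 met the call (an unadjusted p under 0.05 with a log2 change of at least 0.5 or under -0.5), and in Huh7, 1 was higher and 1 lower. The background was 2.14% of tested genes called in HepG2 and 1.87% in Huh7. VHL, which recognises hydroxylated alpha subunits, fell in Huh7. Its values were 45.8 and 43.5 FPKM in Huh7 WT and 20.2 and 20.2 in Huh7 SR. In HepG2, they were 22.2 and 32.2 FPKM in WT and 24.6 and 54.8 in SR, where the groups overlapped. The Huh7 change was -1.11 on the log2 scale (SE 0.44, adjusted p = 1.0), and the difference between the cell lines was -1.55 (SE 0.62, adjusted p = 1.0), the only regulator of 12 called in that contrast, beside 0.606% of tested genes. The Huh7 call held in 2 of 8 fits with 1 library left out, at changes of -1.07 to -1.14, and the call of the difference in 1 of 8, at values of -0.99 (without HepG2 SR replicate 2) to -2.12. Without the 3 libraries that stand apart, the difference was -0.96. RBX1, the ring subunit of the same ligase, rose in Huh7, where WT had 14.3 and 15.7 FPKM and SR 24.4 and 29.8 (log2 change 0.81, SE 0.32, adjusted p = 1.0). The HepG2 values were 27.2 and 29.5 FPKM for WT and 37.2 and 49.9 FPKM for SR, and their difference of 0.59 did not pass the test. The Huh7 call of RBX1 also held in 2 of 8 such fits, and was lost after rescaling to a common sum (0.74). The other subunits of the ligase, ELOB, ELOC and CUL2, had log2 changes of 0.44 to 0.56 in HepG2 and of -0.33 to 0.16 in Huh7, with none called. Among the oxygen sensors, EGLN1, the main prolyl hydroxylase, had changes of -0.40 and 0.11, EGLN2, its relative, 0.43 and -0.44, and HIF1AN, the asparaginyl hydroxylase, 0.23 and -0.13 in HepG2 and Huh7. HIF1AN, at 4.78 to 11.4 FPKM, shares 325 exonic bases with NDUFB8 on the opposite strand, which was at 53.6 to 222 FPKM. EGLN2 shares 2012 with RAB4B-EGLN2 on the same strand (0 to 6.20 FPKM) and ELOB 190 with SRRM2 on the opposite strand (73.4 to 198 FPKM). The part of these genes in the values was not tested. ARNT, the partner subunit, had changes of -0.60 and -0.46, again not called. Of the coactivators and their competitor, EP300 differed by 0.00 and -0.21, CREBBP by -0.67 and -0.58 and CITED2, which competes with the alpha subunits for both, by 0.04 and 0.38.

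CA9 and CA12 are carbonic anhydrases on the cell surface that help cells export acid, and each had 1 library far above the others. CA9 (chromosome 9, 35673856 to 35681159, plus strand) measured 6.08 and 8.59 FPKM in HepG2 WT, 8.29 and 0 in HepG2 SR, 1.05 and 2.11 in Huh7 WT and 2.51 and 30.9 in Huh7 SR. Huh7 SR replicate 2 was far above every other library, HepG2 SR replicate 2 was listed at 0, and both Huh7 SR libraries lay above both Huh7 WT libraries. The log2 difference was -1.43 in HepG2 (SE 1.28, 95% interval -4.48 to 1.61) and 2.07 in Huh7 (SE 1.28, -0.97 to 5.11, adjusted p = 1.0), and neither passed the test. Without HepG2 SR replicate 2, the HepG2 difference was 0.17. CA9 shares 643 exonic bases with ARHGEF39 on the opposite strand, and whether reads were counted by strand is not given in the sources used here. ARHGEF39 was at 9.37 FPKM in the library where CA9 was highest. Its own highest value, 28.2 FPKM, was in Huh7 SR replicate 1, where CA9 was at 2.51 FPKM. The part of ARHGEF39 in the CA9 values was not tested. CA12 (chromosome 15, 63321378 to 63382161, minus strand) was at 0.014 to 0.360 FPKM in 7 libraries and at 2.89 FPKM in HepG2 SR replicate 2, the library where CA9 was listed at 0. It was not tested.

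VEGFA and ADM encode secreted signals, the first the main growth factor for vessel-forming endothelial cells and the second adrenomedullin, a peptide that widens vessels. VEGFA (chromosome 6, 43770184 to 43786487, plus strand) measured 58.0 and 52.7 FPKM in HepG2 WT, 53.8 and 45.7 in HepG2 SR, 33.7 and 93.2 in Huh7 WT and 27.6 and 158 in Huh7 SR. The HepG2 libraries lay close together, while in Huh7 both replicates 1 were low and both replicates 2 high. The log2 difference was -0.15 in HepG2 (SE 0.82) and 0.24 in Huh7 (SE 0.82, 95% interval -1.72 to 2.20). ADM (chromosome 11, 10304680 to 10307397, plus strand) measured 33.4 and 13.0 FPKM in HepG2 WT, 6.56 and 17.9 in HepG2 SR, 9.48 and 8.79 in Huh7 WT and 7.89 and 25.6 in Huh7 SR. Its groups overlapped in both lines, with differences of -0.88 in HepG2 (SE 0.72) and 0.60 in Huh7 (SE 0.72). With 1 library left out, the HepG2 difference ran from -1.54 (without HepG2 SR replicate 2) to -0.22 (without HepG2 SR replicate 1).

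EGLN3 is a prolyl hydroxylase that is itself a target of the factors it restrains. The gene (chromosome 14, 33924231 to 34462774, minus strand, in GENCODE 29) measured 9.03 and 3.17 FPKM in HepG2 WT, 1.60 and 4.31 in HepG2 SR, 1.62 and 0.70 in Huh7 WT and 1.39 and 10.6 in Huh7 SR. The highest libraries were Huh7 SR replicate 2 and HepG2 WT replicate 1, and the groups overlapped in both lines. The log2 difference was -0.80 in HepG2 and 1.32 in Huh7 (SE 0.84 for both). With 1 library left out, the HepG2 difference ran from -1.43 (without HepG2 WT replicate 2) to -0.17 (without HepG2 WT replicate 1). Its annotated span also holds SPTSSA on the same strand, with which it shares 0 exonic bases.

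NDRG1, a stress-responsive gene linked to differentiation, measured 79.5 and 20.3 FPKM in HepG2 WT, 22.7 and 46.1 in HepG2 SR, 6.53 and 12.7 in Huh7 WT and 9.84 and 54.6 in Huh7 SR. Replicates differed widely, with an SD of 41.9 FPKM in HepG2 WT and 31.6 FPKM in Huh7 SR (n = 2), and the groups overlapped in both lines. The log2 difference was -0.31 in HepG2 and 1.27 in Huh7 (SE 0.94 for both).

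BNIP3, a mitochondrial membrane protein that marks mitochondria for removal by autophagy, was higher in each of the 4 SR libraries than in each of the 4 WT libraries. The gene (chromosome 10, 131966455 to 131982013, minus strand) measured 44.0 and 54.7 FPKM in HepG2 WT, 76.1 and 89.5 in HepG2 SR, 42.3 and 57.8 in Huh7 WT and 58.5 and 139 in Huh7 SR. Means were 49.3 ± 7.57 and 82.8 ± 9.49 FPKM in HepG2 and 50.1 ± 11 and 98.7 ± 57.0 FPKM in Huh7 for WT and SR (SD, n = 2). The margin was narrow in Huh7, where the lower SR library and the higher WT library differed by less than 1 FPKM. Such complete separation was seen in 1 of the 9 tested members in this direction and in 0 in the other, beside 1.52% of tested genes with all SR libraries above all WT libraries and 2.17% with all below. The log2 difference was 0.74 in HepG2 (SE 0.46, 95% interval -0.36 to 1.83, adjusted p = 0.956) and 0.85 in Huh7 (SE 0.46, -0.24 to 1.95, adjusted p = 1.0), so BNIP3 was not called in either line. With each cell line fitted alone, the same HepG2 difference met the call (SE 0.27, adjusted p = 0.760). BNIP3 has 44 pseudogenes in the deposited values, whose summed level was 0.600 to 4.08 FPKM, and reads shared with them cannot be told apart.

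ANKRD37, an ankyrin repeat gene that is a direct target of HIF-1, had differences of opposite sign in the 2 lines and passed the test in neither. It (chromosome 4, 185396021 to 185400628, plus strand) measured 4.03 and 4.65 FPKM in HepG2 WT, 2.46 and 0.822 in HepG2 SR, 0.875 and 2.04 in Huh7 WT and 0.947 and 6.21 in Huh7 SR. Both HepG2 SR libraries lay below both HepG2 WT libraries, and the Huh7 groups overlapped. The log2 difference was -1.09 in HepG2 (SE 0.68, 95% interval -2.71 to 0.54, adjusted p = 0.956) and 0.65 in Huh7 (SE 0.68). ANKRD37 shares 909 exonic bases with UFSP2 on the opposite strand. UFSP2 measured 8.81 and 7.04 FPKM in HepG2 WT, 7.23 and 4.10 in HepG2 SR, 3.44 and 10.2 in Huh7 WT and 3.37 and 4.92 in Huh7 SR, and its part in the ANKRD37 values was not tested.

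**Figure D2:**
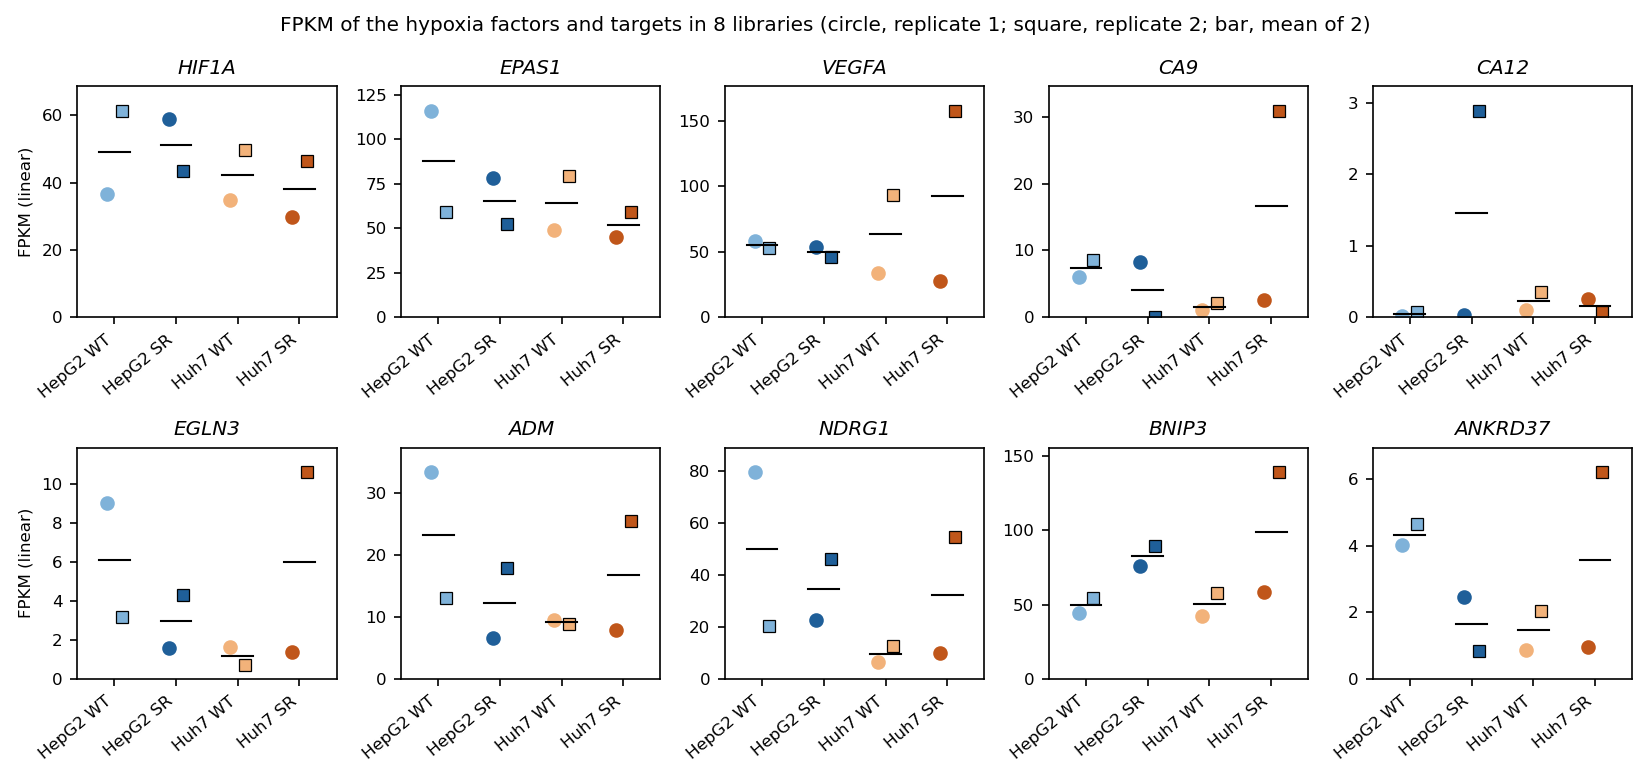
FPKM on a linear axis, scaled for each gene on its own, of the 10 genes in the 4 groups; circles are replicate 1, squares replicate 2 and bars the mean of 2 libraries. Huh7 SR replicate 2 is the highest library for 5 of the 10 genes, a count not made for all tested genes. Of the 10, BNIP3 is the gene whose SR libraries all lie above its WT libraries.

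The highest and lowest values of the members are given next by library, and the same counts were not made for all tested genes. Huh7 SR replicate 2 was the highest library for VEGFA, CA9, EGLN3, BNIP3 and ANKRD37, HepG2 WT replicate 1 for EPAS1, ADM and NDRG1, HepG2 WT replicate 2 for HIF1A and HepG2 SR replicate 2 for CA12. The lowest value lay in Huh7 SR replicate 1 for 3 members. In the order of the 4 group means, neighbouring groups overlapped for every member except BNIP3, whose HepG2 SR values (76.1 and 89.5 FPKM) lay above those of Huh7 WT. The factors varied least, with an SD over the 8 libraries on the log2(FPKM + 1) scale of 0.36 for HIF1A and 0.45 for EPAS1, which exceeded that of 25% and 41.4% of tested genes. BNIP3 had an SD of 0.56, and VEGFA, ANKRD37 and ADM of 0.78 to 0.79. The most variable were EGLN3 at 1.01, NDRG1 at 1.21 and CA9 at 1.55, the last above 95.8% of tested genes.

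Whether these genes differ between sorafenib-resistant and parental cells was tested for 9 members in each line, and 0 of 9 were called in HepG2 and 0 of 9 in Huh7. The background was 2.14% of tested genes called in HepG2 and 1.87% in Huh7, so fewer than 1 call among 9 genes would match it. In limma, 0 of 9 had an unadjusted p under 0.05 at any fold in either line, and 0 of 15173 genes had an adjusted p under 0.05. Both SR libraries lay above both WT libraries for 1 member in HepG2 (BNIP3), beside 18.1% of tested genes, and below for 1 (ANKRD37), beside 20.1%. In Huh7, they lay above for 2 (BNIP3 and CA9), beside 9.06%, and below for 0, beside 12.9%. Of the 7 tested targets, SR minus WT was above 0 for 1 in HepG2, with a median of -0.80 beside -0.03 over all tested genes. In Huh7, it was above 0 for all 7, with a median of 0.85 beside -0.05. The difference between the 2 lines in this change was called for 0 of 9 members, beside 0.606% of tested genes. It was above 0 for all 7 targets and largest for CA9 (3.50, SE 1.81, adjusted p = 1.0), followed by EGLN3 (2.12), ANKRD37 (1.74), NDRG1 (1.59) and ADM (1.48). Huh7 against HepG2, over WT and SR, was called for 0 of 9, beside 4.9% of tested genes, with NDRG1 the farthest from 0 at -1.24 (SE 0.66, adjusted p = 0.813).

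**Figure D3:**
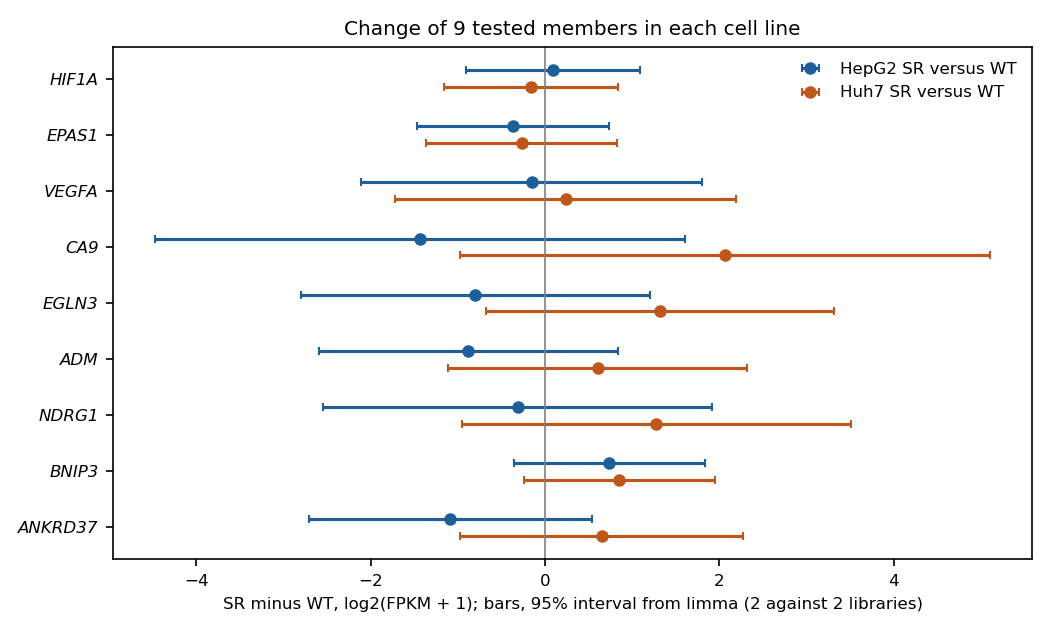
SR minus WT on the log2(FPKM + 1) scale for the 9 tested members in HepG2 and Huh7, with points for the limma estimate and bars for its 95% interval, each from 2 against 2 libraries. Every interval includes 0; all 7 targets lie right of 0 in Huh7, and BNIP3 alone of the targets does so in HepG2.

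These counts changed when the libraries that stand apart were left out or modelled. Without HepG2 SR replicate 2 and Huh7 WT and SR replicates 1, HepG2 SR, Huh7 WT and Huh7 SR are left with 1 library each. The spread between replicates then comes from the 2 HepG2 WT libraries alone and is assumed for the other groups, Huh7 included. In that fit, 4 of 9 members were called higher in Huh7 SR, beside 13.8% of tested genes: CA9 (3.36), EGLN3 (2.77), BNIP3 (1.25) and ANKRD37 (1.25). In HepG2, 1 of 9 was called, ADM (-1.54), beside 3.48%. With the expression profile as a term in a fit of all libraries, 2 of 9 were called higher in Huh7 SR, CA9 and BNIP3, beside 8.57%. Without Huh7 SR replicate 1 alone, 5 of 9 were called higher, CA9, NDRG1, EGLN3, ANKRD37 and BNIP3, beside 3.91%. The smallest adjusted p of a member in these fits was 0.104, for CA9 in the fit without 3 libraries.

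The members were then compared between libraries of the same set, as single differences with no replicate and no test. The Huh7 replicates 2 were the least alike pair of the larger set (r = 0.914), while the Huh7 replicates 1 had an r of 0.965. Huh7 SR replicate 2 minus Huh7 WT replicate 2, both from the larger set, was above 0 for all 7 targets and over 1 for 6 of 7, beside 7.69% of tested genes higher by over 1. The differences were 3.36 for CA9, 2.77 for EGLN3, 2.02 for NDRG1, 1.44 for ADM, 1.25 for BNIP3, 1.25 for ANKRD37 and 0.75 for VEGFA. The factor genes did not share this direction, with -0.09 for HIF1A and -0.41 for EPAS1. Hepatocyte markers moved along with the targets, since the 10 of them summed to 5937 against 1180 FPKM in these libraries, with albumin (ALB) at 2891 against 604 FPKM, and their part in the differences was not tested. Huh7 SR replicate 1 minus Huh7 WT replicate 1, from the smaller set, gave 0 of 7 over 1, beside 2.91%. The values were 0.78 for CA9, 0.53 for NDRG1 and 0.46 for BNIP3, and between -0.28 and 0.05 for the other 4 targets. Without Huh7 SR replicate 2, the fitted Huh7 differences of the 7 targets ran from -1.0 for VEGFA to 0.48 for CA9.

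In HepG2, each SR library was set against the mean of the 2 WT libraries. SR replicate 1, which is alike to them, was lower by over 1 for 2 of 7 targets, ADM (-1.54) and EGLN3 (-1.31), beside 1.86% of tested genes. For both genes it also lay below the lower WT library, at 6.56 against 13.0 FPKM for ADM and at 1.60 against 3.17 FPKM for EGLN3. SR replicate 2, which stands apart, was lower by over 1 for 2 of 7 as well, CA9 (-3.04) and ANKRD37 (-1.55), beside 17.1%. BNIP3 was higher in both, by 0.62 and 0.85.

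**Figure D4:**
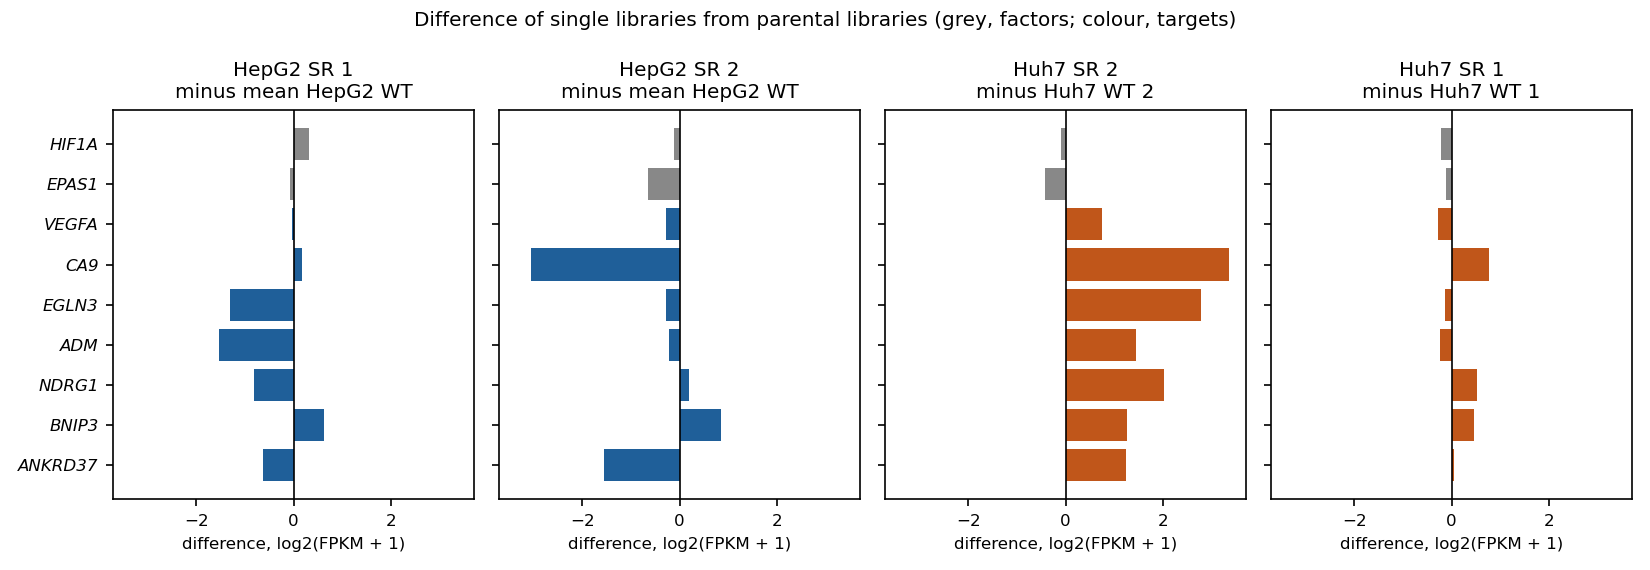
Differences on the log2(FPKM + 1) scale of single SR libraries from WT libraries for the 9 tested members, grey for the 2 factors and coloured for the 7 targets, each bar from 1 SR library. In Huh7 replicate 2 all 7 targets lie above 0, while the differences in Huh7 replicate 1 stay between -0.28 and 0.78.

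Other targets of the factors were followed as 3 lists of 52 genes, of which 51 were tested. In HepG2, 0 of 51 were called higher and 3 lower, beside 2.14% of tested genes called, and the median change was -0.23 beside -0.03 over all tested genes. BHLHE40, a circadian repressor, fell, with 65.3 and 28.6 FPKM in WT against 16.1 and 17.6 in SR (log2 change -1.31, SE 0.42, adjusted p = 0.956). LOXL2, which crosslinks collagen, fell at a low level, with 3.06 and 1.45 FPKM in WT against 0.343 and 0.80 in SR (-1.02, SE 0.41, adjusted p = 0.956). It shares 120 exonic bases with ENTPD4 on the same strand. The third was the glucose transporter gene SLC2A3, at 773 and 518 FPKM in WT and 173 and 0.0940 in SR, whose near-identical paralog SLC2A14 can share its reads. Without HepG2 SR replicate 2 its change was -1.87 and not called. With each library left out in turn, the call held in 6 of 8 fits for BHLHE40 (not without HepG2 WT replicate 1, where its change was -0.73, or HepG2 SR replicate 1), in 3 of 8 for SLC2A3 and in 0 of the 6 in which LOXL2 passed the filter. IGFBP1 (log2 difference -4.0) and PFKP (-2.56), a binding protein of insulin-like growth factors and a phosphofructokinase, were also below WT in both SR libraries but did not pass the test. SLC2A3 and these 2 genes were at 7.63 to 249 FPKM in HepG2 SR replicate 1 and at 0.0780 to 2.52 FPKM in replicate 2, the library that stands apart. ALDOC, an aldolase, was the largest difference the other way, at 6.29 and 6.94 FPKM in WT and 11 and 39.2 in SR (1.53, SE 0.70).

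In Huh7, 1 of the 51 was called higher and 1 lower, beside 1.87% of tested genes called, with a median change of 0.40 beside -0.05. LDHA, which makes lactate from pyruvate, rose, with 93.3 and 46.1 FPKM in WT against 172 and 231 in SR (log2 change 1.59, SE 0.46, adjusted p = 1.0). In HepG2, LDHA was at 82.8 and 141 FPKM in WT and 196 and 228 FPKM in SR, without passing the test. VLDLR, a lipoprotein receptor, fell, with 13.8 and 7.40 FPKM in WT against 3.01 and 5.25 in SR (-1.16, SE 0.45, adjusted p = 1.0), and it shares 738 exonic bases with an antisense RNA that was at no more than 1.02 FPKM. The call held in 6 of 8 fits with a library left out for LDHA (not without Huh7 WT replicate 2 or Huh7 SR replicate 2) and in 2 of 8 for VLDLR, whose change was -0.75 without Huh7 WT replicate 1 and -0.43 without the 3 libraries that stand apart. FAM162A (log2 difference 1.22), PFKFB4 (1.18) and ALDOC (1.07), a mitochondrial target of HIF-1, a regulator of glycolysis and the aldolase above, lay above WT in both SR libraries but did not pass the test.

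By list, the 17 glucose genes had a median of -0.22 in HepG2, with 8 above 0, and of 0.62 in Huh7, with 15 above 0. The 12 vessel and matrix genes had medians of -0.33 and 0.40, with 4 and 9 above 0. The 22 other targets tested had medians of -0.24 and 0.03, with 9 and 13 above 0, and the 12 regulators of 0.33 and -0.19, with 9 and 4 above 0. Over all 4 lists, 3 of 63 genes were called in HepG2, beside 2.14% of tested genes, and 4 of 63 in Huh7, beside 1.87%. Between Huh7 replicates 2, 42 of the 51 targets outside the members were higher in SR, 20 by over 1 and 3 lower by over 1. Of all tested genes, 7.69% were higher by over 1 and 7.94% lower by over 1. The median was 0.84 beside -0.11 over all tested genes. Between Huh7 replicates 1, 21 of 51 were higher, 0 by over 1 and 3 lower by over 1, with a median of -0.11 beside 0 over all tested genes. The shares of all tested genes were 2.91% higher by over 1 and 2.23% lower by over 1.

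**Figure D5:**
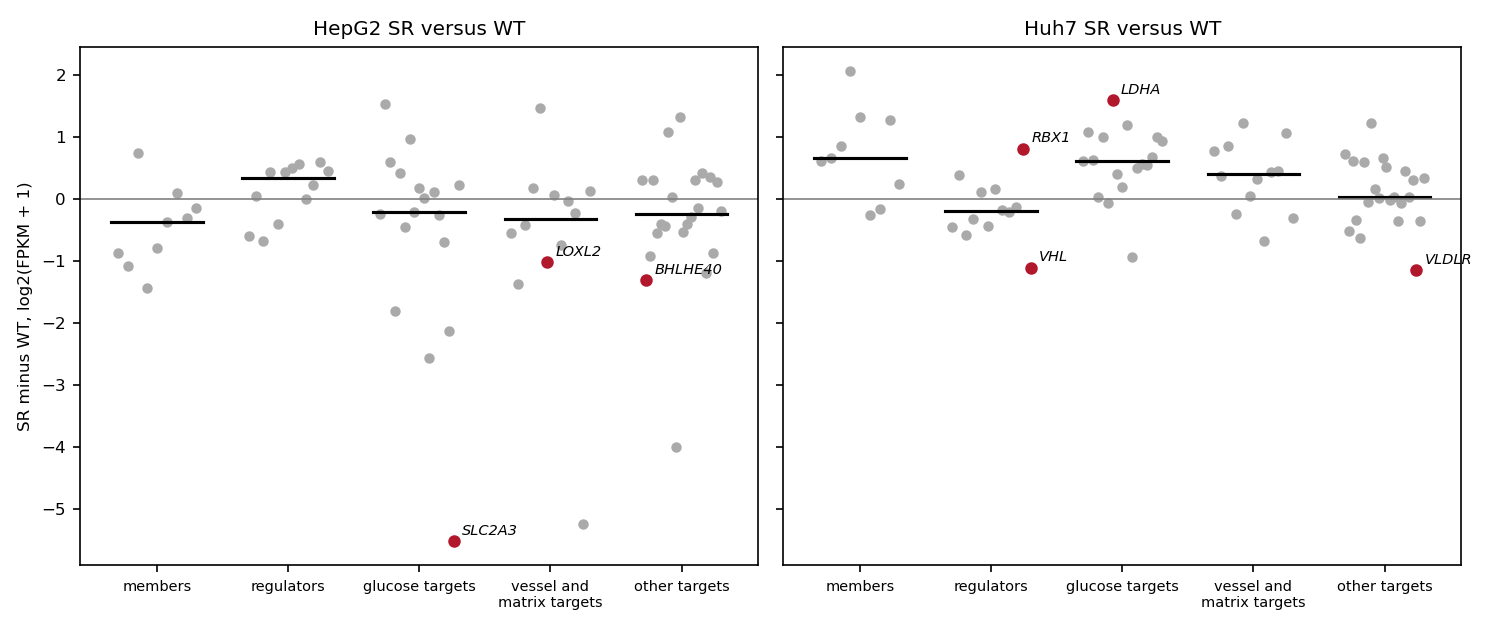
SR minus WT on the log2(FPKM + 1) scale in HepG2 and Huh7 for the members and the 4 lists, with 1 point per tested gene, a bar at each list's median and red points for genes that met the call. The median of the glucose genes is -0.22 in HepG2 and 0.62 in Huh7, and 3 and 4 genes are marked as called.

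Likeness of pattern was measured as the root mean square difference of log2(FPKM + 1), centred on each gene's mean, over the 8 libraries, which share their 3 expression profiles. Among the members, EGLN3 and ADM were the closest pair at 0.36, and ADM was also the nearest of all tested genes to EGLN3. The nearest member was EPAS1 for HIF1A (0.46), BNIP3 had HIF1A (0.53), VEGFA had ANKRD37 (0.54), NDRG1 had EGLN3 (0.56) and CA9 had ANKRD37 (0.86). The distance of HIF1A from EPAS1 was above the SD of either gene over the 8 libraries (0.36 and 0.45). That of BNIP3 from HIF1A was near the SD of BNIP3 (0.56). Neither distance therefore shows a shared pattern, since a gene that does not vary would lie about as near. Over all tested genes, the nearest to HIF1A were RHOBTB3 (0.12) and CORO2A (0.13), to EPAS1 ATG4D (0.09) and ABHD4 (0.13), and to VEGFA NPIPB12 (0.19) and ENSG00000265982 (0.21). BNIP3 was nearest to LUC7L3 and LIME1 (0.17 for both), and ANKRD37 to ENSG00000290769 (0.17) and CETP (0.18). CA9 had no close match, with SLC6A8 at 0.55 and TUBB1 at 0.56. For NDRG1 they were ADORA2A (0.31) and ALPK2 (0.41), for ADM the pseudogene GTF2IP4 (0.26) before EGLN3, and for EGLN3 ENSG00000286714 (0.41) after ADM.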

How the data were processed

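Polyadenylated RNA of 8 libraries was enriched on oligo(dT) beads and prepared with the NEBNext Ultra kit. Per the submitters' processing notes, fastp 0.20.0 and GRCh38 were used, while the aligner, counter, its strand setting and the annotation are not given in the sources used here. The authors deposited FPKM, 1 value per gene and library, already scaled for depth and transcript length, and their edgeR test could not be repeated on FPKM. Read totals are not part of them. Among genes with 1 annotated transcript, 6.40% to 10.9% of low values came within 0.02 of a whole number of reads, where chance would give 4.0%. Counts were thus not recovered, depth is unknown and no counting interval is given.

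Samples were grouped by their labels. The labels do not say that replicates were separate cultures, so p-values measure the spread between libraries, which may be technical in part and whose source was not tested. In Huh7 WT, Huh7 SR and HepG2 SR, that spread lies between libraries of different expression profiles (r = 0.754, 0.760 and 0.819). Of 63241 identifiers, 62666 had a symbol and 58228 were in GENCODE 29, used for positions and overlaps. The test was limma 3.58.1 (R 4.3.3) on log2(FPKM + 1), by lmFit and eBayes with trend, with 4 group means and 4 residual degrees of freedom, on 15173 genes that reached an FPKM of 1 in 2 or more libraries. Calls used an unadjusted p under 0.05 with a log2 change of at least 0.5 or under -0.5, and Benjamini-Hochberg adjusted p-values run over all tested genes. A fold change on this scale understates the change of low genes. The scripts were tested on simulated data.

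Named were all 10 members, the regulators, every called target, the 5 largest target changes in each line without overlap at a mean FPKM of at least 1, and the 2 tested genes with the smallest root mean square difference from each member. One gene that this rule names is not reported here. The other lists were glucose, vessel and matrix, and other targets, and markers of hepatocytes, cholangiocytes, fibroblasts, endothelial cells and leukocytes. Members and lists were chosen with earlier results of these data known, and the count of genes with all 4 SR libraries on one side of all 4 WT libraries was added after the values were seen. Alternatives changed the pseudocount (0.1), filter, scaling, model, thresholds and libraries. Python 3.11.15 was used with matplotlib 3.10.9, NumPy 2.4.6 and pandas 2.3.3 for tables and plots, and promoters came from RefSeq (GRCh38.p14).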

Additional observations from a re-analysis of the deposited data

Results flagged for a closer look

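CA12, which did not pass the filter and entered no test, was at 2.89 FPKM in HepG2 SR replicate 2 and at no more than 0.360 FPKM in any other library, WT libraries included. It was picked out because this signal lies outside the tested genes and above the level of the parental cells, in the library that stands apart from every other. The other HepG2 SR library was at 0.036 FPKM. Groups of 2 libraries were too small for a search for single outlying values.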

How the results depend on the processing

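With 2 libraries a group, the number of called members rested on which libraries entered. In HepG2 it went from 0 to 1 with each cell line fitted alone, where the share of all tested genes called went from 2.14% to 3.16%. It also changed without the 3 libraries that stand apart and did not change with each library left out in turn. In Huh7 it went from 0 to 4 without those 3 libraries, to 2 with the profile as a term, and ranged from 0 to 5 with 1 library left out (5 without Huh7 SR replicate 1). For the difference between the lines it went from 0 to 1 with the profile as a term, while the share of all tested genes called went from 0.606% to 1.85%. For Huh7 against HepG2 it went from 0 to 1 under that setting, beside a share that went from 4.9% to 8.1%. Both counts also changed without those 3 libraries and with some single libraries left out, fits that leave 1 library in a group. Listed genes called in HepG2 went from 3 to 1 with a pseudocount of 0.1 and to 0 at an adjusted p under 0.05. They went to 6 without the 3 libraries (all tested genes, from 2.14% to 3.48%). With 1 library left out, they ranged from 0 (without HepG2 WT replicate 1) to 7 (without HepG2 SR replicate 1). The share of all tested genes called moved the same way, to 0.453% and 11.6%. Both of these fits leave 1 library in a group, and their range does not single out the listed genes. In Huh7 the listed genes called went from 4 to 0 at an adjusted p under 0.05, to 19 without the 3 libraries and to 10 with the profile term. The share of all tested genes called went from 1.87% to 13.8% and 8.57% in the last 2 settings. With 1 library left out, the listed genes called in Huh7 ranged from 1 to 8. The 8 came without Huh7 SR replicate 1, a fit that leaves 1 library in a group, where the share rose to 3.91%. Values that changed sign were HIF1A in HepG2, from 0.10 to -0.0076 after rescaling to a common sum and -0.013 after quantile normalization, and CA9 in HepG2, from -1.43 to 0.17 without the 3 libraries and 0.17 with the profile term. With 1 library left out, HIF1A ranged from -0.27 to 0.46 in HepG2 and -0.47 to 0.16 in Huh7, EPAS1 from -0.85 to 0.11 and -0.61 to 0.076, CA9 in HepG2 from -3.04 to 0.17 and NDRG1 in HepG2 from -1.27 to 0.65. In Huh7, VEGFA ranged from -1.0 to 1.47, ADM from -0.19 to 1.39, ANKRD37 from -0.30 to 1.59, CA9 from 0.48 to 3.66, EGLN3 from 0.18 to 2.46 and NDRG1 from 0.095 to 2.45, with the ends without SR replicate 2 and without SR replicate 1. In HepG2, VEGFA ranged from -0.27 to -0.04 and ANKRD37 from -1.55 to -0.62. BNIP3 ranged from 0.58 to 0.89 in HepG2 and from 0.24 to 1.47 in Huh7, above 0 with any library left out. The cause of these shifts was not tested beyond the libraries named. Rescaling to a common sum moved the median of all tested genes from -0.03 to -0.12 in HepG2 and from -0.05 to -0.14 in Huh7.

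Replicate numbers are shared between groups, but no label says that they pair samples. The difference of replicate 1 from 2 correlated between WT and SR across 15173 genes at r = 0.125 in HepG2 and 0.796 in Huh7, from 2 numbers only. In Huh7, both replicates 1 belong to the smaller set of alike libraries and both replicates 2 to the larger. The Huh7 value cannot tell pairing from these sets. With the replicate number as a block, 0 members were called in HepG2 and 0 in Huh7, and the 18 log2 changes of members kept their direction and their side of the threshold. This block was 1 offset shared by both cell lines, so it could not take up a replicate difference found in Huh7 alone. Among the listed genes, LOXL2 in HepG2 (-1.02) and VLDLR in Huh7 (-1.16) lost their call under the block and PFKP in HepG2 (-2.56) gained one, so that 3 listed genes were called in each line.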
